A study of Danio rerio with 18 samples.

Results

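The genes described here encode digestive enzymes of the exocrine pancreas. The list held 10 zebrafish symbols, namely the trypsins prss1, prss59.1 and prss59.2, the elastases ela2, ela2l and ela3l, the carboxypeptidases cpa4, cpa5 and cpb1, and the bile salt-activated lipase cel.1. A gene was taken as a member when the symbol of its Ensembl ID in the count data matched one of these names, upper or lower case aside. This found 7 of the 10 among 32520 genes, prss1 (ENSDARG00000042993), prss59.1 (ENSDARG00000079274), prss59.2 (ENSDARG00000073742), ela2 (ENSDARG00000056744), ela2l (ENSDARG00000056765), ela3l (ENSDARG00000007276) and CPB1 (ENSDARG00000045442), the last written in capitals in the name table. The names cpa4, cpa5 and cel.1 paired with no ID in that table and were not analysed here under these names. Genes that the table names CPA1 and CEL are counted below among the other digestive genes. Whether any of them is cpa4, cpa5 or cel.1 was not determined. All 7 members passed the filter on low counts, in which 23223 genes were kept.

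Whole zebrafish larvae at 120 hpf (hours post fertilization) were analyzed by RNA-Seq in 3 groups of 6 samples. The groups were untreated akr1a1a+/+ larvae, untreated akr1a1a-/- larvae, and akr1a1a+/+ larvae exposed from 24 to 120 hpf to ACR (acrolein, a reactive aldehyde). Akr1a1a is an aldo-keto reductase, and the series asked how its loss and an external load of ACR alter the larval transcriptome. The akr1a1a-/- line carried 1 CRISPR/Cas9-made deletion-insertion in the second exon of akr1a1a, and both genotypes were in the Tg(fli1:EGFP) reporter background, in which EGFP marks the endothelium. Per the labels, all groups were kept in medium with PTU against pigment, and the study's methods describe each sample of the 2 genotypes as a pool of larvae from a single clutch.

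The exocrine pancreas is made mostly of acinar cells, which synthesize digestive enzymes, store them in zymogen granules and release them into the gut. Trypsins, chymotrypsins and elastases are serine proteases made as inactive zymogens, and carboxypeptidases remove single residues from the C-terminal end of the resulting peptides. In zebrafish, acinar cells express these enzymes well before the larva starts to feed, and several of the genes exist as tandem copies. Near-identical copies can share reads, so the split of reads within prss59.1 and prss59.2, and within ela2 and ela2l, may be uncertain in these estimated counts. How alike the sequences of these copies are was not examined. In the GRCz12tu gene order, prss59.1 and prss59.2 are neighbours with 0 genes between them, and so are ela2 and ela2l. The samples were whole larvae, so fewer acinar cells and less enzyme mRNA per acinar cell cannot be told apart.

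Sequencing depth was even, with 19878464 to 20463404 estimated counts per sample (median 20148141). The targeted gene akr1a1a had 2.32 to 3.41 CPM (a count relative to the TMM-scaled library total, used to compare 1 gene between samples) in the untreated akr1a1a+/+ samples, 2.76 to 3.75 in the ACR-treated samples and 0.306 to 0.741 in the akr1a1a-/- samples, in the order of the labels. Lane 2 held every untreated akr1a1a+/+ library and lane 3 every akr1a1a-/- library, so lane and genotype cannot be told apart between those groups. Of the ACR-treated samples, replicates 1 to 3 were on lane 2 and replicates 4 to 6 on lane 3.

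Regulators of acinar cells were measured as well, although in whole larvae their levels cannot show which cells the enzyme mRNA came from. PTF1A, the transcription factor that specifies the exocrine pancreas, had a mean of 3.68 TPM (a level per transcript length) and a range of 2.15 to 5.79 over the 18 samples. NR5A2 had a mean of 4.48 TPM and GATA6 of 16.5 TPM, both also expressed in other organs. BHLHA15, the acinar factor also called Mist1, had a mean of 0.886 TPM. RBPJL, the acinar partner of PTF1A, lay between 0 and 18 counts per sample and was not tested.

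The 7 members were among the abundant mRNAs of the larva. By mean TPM over all 18 samples they took ranks 124 to 593 of 23223 genes, and together they made up 0.445% of all TPM in untreated akr1a1a+/+ larvae, 0.412% in akr1a1a-/- larvae and 0.376% in ACR-treated larvae. The summed level was 4453 ± 1010 TPM in untreated akr1a1a+/+ larvae, 4125 ± 465 in akr1a1a-/- larvae and 3765 ± 1140 in ACR-treated larvae (SD, n = 6 each). The ranges of the 3 groups overlapped, from 3181 to 5503 TPM, from 3552 to 4740 TPM and from 2388 to 5241 TPM, in the same order.

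Per transcript length, the trypsins were highest. In untreated akr1a1a+/+ larvae the mean level was 1390 ± 276 TPM for prss59.2, 1150 ± 269 for prss1 and 788 ± 203 for prss59.1, followed by ela2 at 471 ± 172, ela3l at 257 ± 82.4, CPB1 at 197 ± 60.9 and ela2l at 192 ± 81.0 (SD, n = 6). Each of these neighbours overlapped in range across samples. Within each sample, however, the order down to CPB1 was the same in 6 of 6 samples, whereas CPB1 was above ela2l in 3 of 6. In akr1a1a-/- larvae, ela2l followed the trypsins with 327 ± 34.7 TPM, above ela2 (296 ± 49.2 TPM) in 5 of 6 samples. In ACR-treated larvae, ela2l had 163 ± 84.9 TPM and CPB1 151 ± 31.0 TPM, and ela2l was the higher in 4 of 6 samples.

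**Figure D1:**
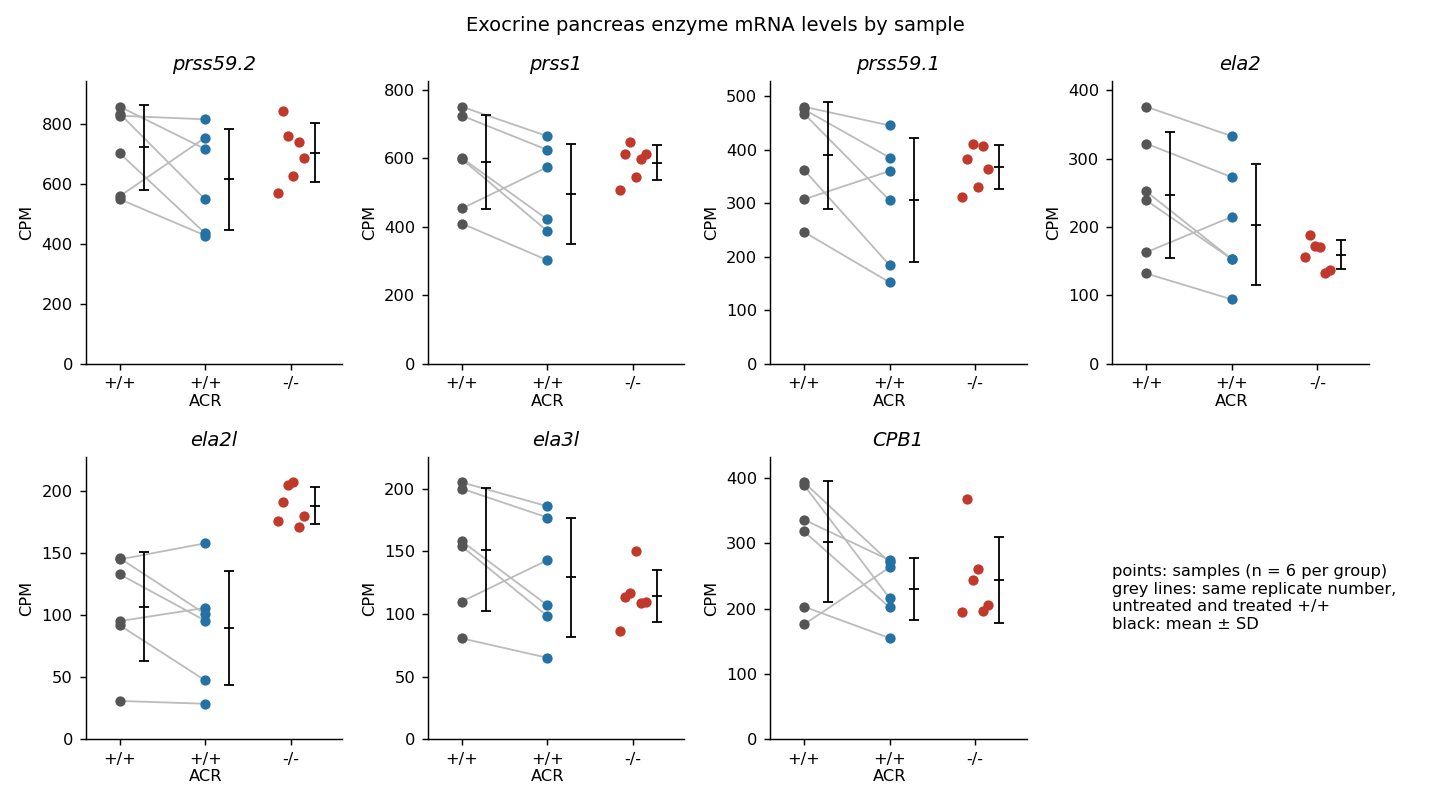
The level of each of the 7 enzyme mRNAs (y axis, CPM from 0) in the 18 samples, in untreated akr1a1a+/+ larvae (+/+), ACR-treated akr1a1a+/+ larvae (+/+ ACR) and akr1a1a-/- larvae (-/-), with the mean ± SD in black and grey lines joining untreated and treated akr1a1a+/+ samples of the same replicate number. The 6 akr1a1a-/- samples of ela2l sit between 171 and 207 CPM, above all other samples of that gene, while the groups overlap for the other 6 genes.

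No difference in trypsin mRNA beyond the spread between samples was found between the genotypes. Prss1, which encodes a trypsinogen, had 597, 409, 724, 453, 750 and 600 CPM in untreated akr1a1a+/+ replicates 1 to 6. The akr1a1a-/- samples had 506, 612, 647, 546, 598 and 613 CPM. The akr1a1a-/- values all lay inside the range of the akr1a1a+/+ values, and the log2 fold change of akr1a1a-/- against akr1a1a+/+ was -0.005 (SE 0.17, edgeR quasi-likelihood test, adjusted p = 0.989).

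Prss59.2, the most abundant member, encodes a trypsin-like protease. It had 701, 548, 856, 558, 826 and 833 CPM in akr1a1a+/+ larvae and 569, 842, 757, 626, 740 and 684 CPM in akr1a1a-/- larvae. Its neighbour prss59.1 had 362, 246, 475, 307, 480 and 467 CPM in akr1a1a+/+ larvae and 311, 382, 411, 330, 407 and 364 CPM in akr1a1a-/- larvae. For both genes the akr1a1a-/- samples again fell within the akr1a1a+/+ range. The log2 fold changes were -0.04 (95% interval -0.37 to 0.30) for prss59.2 and -0.08 (-0.53 to 0.36) for prss59.1, with adjusted p = 0.912 and 0.838 in edgeR.

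Among the elastases, ela2 and ela2l differed in direction. Ela2, an elastase 2 gene, had 252, 132, 376, 163, 322 and 239 CPM in akr1a1a+/+ larvae and 156, 188, 172, 171, 133 and 137 CPM in akr1a1a-/- larvae. The mean was 248 ± 92.2 CPM against 160 ± 21.6 CPM (SD, n = 6 each), and the groups overlapped because akr1a1a+/+ replicates 2 and 4 were as low as the akr1a1a-/- samples. The log2 fold change was -0.63 (SE 0.26, 95% interval -1.17 to -0.09), which did not pass the threshold across all genes (edgeR, adjusted p = 0.102), and the exact two-sided permutation test over the 12 samples gave p = 0.0563. Without akr1a1a+/+ replicate 2, the lowest of its group, the log2 fold change was -0.76 with adjusted p = 0.0459, and without replicate 3, the highest, it was -0.48 with adjusted p = 0.225. Of 12 fits that each left out 1 sample, 1 passed the threshold.

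Ela2l, the elastase 2-like neighbour of ela2, had 91.9, 146, 31.0, 95.3, 145 and 133 CPM in akr1a1a+/+ larvae and 176, 191, 205, 207, 171 and 180 CPM in akr1a1a-/- larvae. Every akr1a1a-/- sample was above every akr1a1a+/+ sample, which was the case, in either direction, for 7.45% of all genes tested. The mean was 107 ± 44.2 CPM against 188 ± 15.2 CPM, a log2 fold change of 0.82 (SE 0.33, 95% interval 0.13 to 1.5). This did not pass the threshold in the fit across all genes (edgeR, adjusted p = 0.0975), while the exact two-sided permutation test of this gene gave p = 0.0022, the smallest that 6 against 6 samples can give and 1 of 21 such unadjusted tests. With lane as a term in the model, which leaves only the ACR-treated samples to separate lane from group, the value was -0.20 (edgeR, adjusted p = 0.842). Among the treated samples, lane coincides with replicate numbers 1 to 3 against 4 to 6, so this term cannot separate lane from replicate number.

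Ela3l, an elastase 3-like gene, had 154, 80.6, 205, 110, 200 and 158 CPM in akr1a1a+/+ larvae and 86.6, 114, 117, 150, 109 and 110 CPM in akr1a1a-/- larvae. The groups overlapped, and the log2 fold change of -0.40 (SE 0.23) did not pass the threshold (edgeR, adjusted p = 0.261). CPB1 encodes carboxypeptidase B, which removes basic residues. It had 318, 203, 393, 176, 336 and 389 CPM in akr1a1a+/+ larvae and 195, 367, 244, 260, 196 and 205 CPM in akr1a1a-/- larvae, with a log2 fold change of -0.31 (SE 0.20, edgeR, adjusted p = 0.32). All akr1a1a-/- samples of CPB1 other than replicate 2 lay below the akr1a1a+/+ mean of 303 CPM.

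Hence 0 of 7 members passed adjusted p under 0.05 between the genotypes, while 16.2% of all genes tested did (8.19% higher and 7.96% lower in akr1a1a-/- larvae). At an unadjusted p under 0.05, ela2 and ela2l passed, 2 of 7 members beside 29.8% of all genes. DESeq2 also called 0 of 7 at adjusted p under 0.05, beside 17.5% of all genes. In an edgeR fit of these 2 groups alone, ela2l (0.81, adjusted p = 0.0442) and ela2 (-0.64, adjusted p = 0.0467) were called, beside 15.5% of all genes. The median log2 fold change of the members was -0.08, beside 0.00 for all genes (-0.000739 before rounding). Without a lane term, the 95% intervals of the trypsins reached at most 0.53 on the log2 scale in either direction. With a lane term, the log2 fold changes of all 7 members were below 0, at -0.34 for prss1, -0.46 for prss59.2, -0.70 for prss59.1, -0.78 for ela2, -0.20 for ela2l, -0.69 for ela3l and -0.57 for CPB1, with adjusted p of 0.202 or more in edgeR. That term cannot separate lane from the replicate number of the treated samples, so these values cannot be read as an effect of lane alone. Each member had at least 587 counts in every sample, so counting depth did not limit these values.

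**Figure D2:**
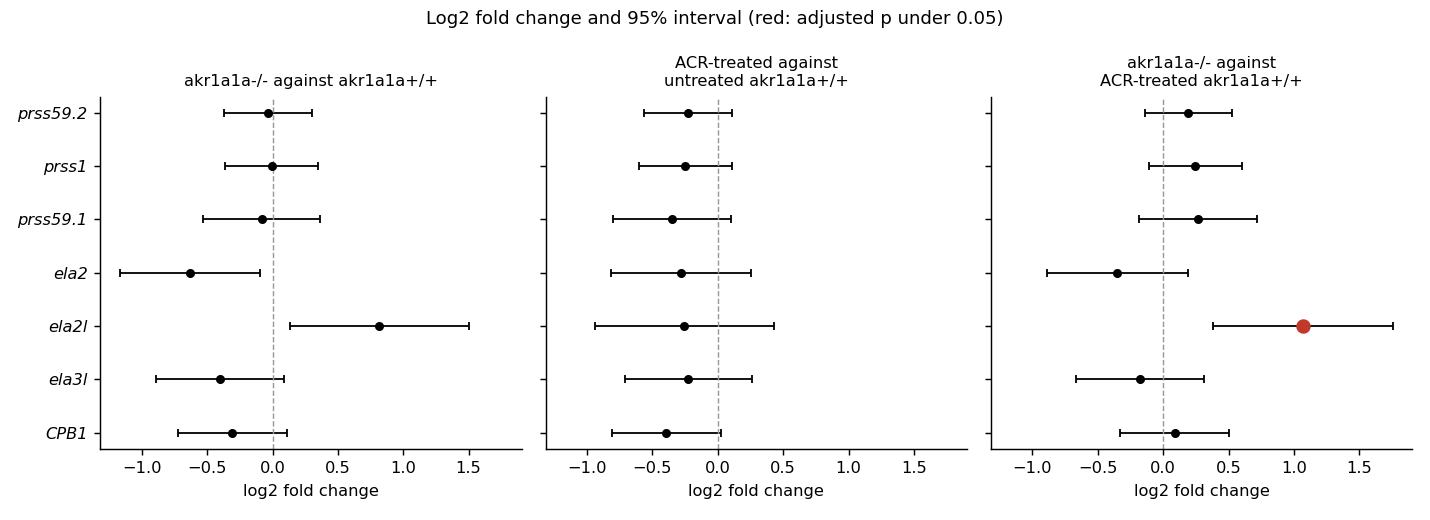
Log2 fold change (x axis) of each of the 7 enzyme mRNAs in the 3 comparisons, points with their 95% interval, from 6 samples per group. Values are from the fit without pairing by replicate number. Ela2l in akr1a1a-/- against ACR-treated larvae, at 1.07, is drawn in red as the only value with adjusted p under 0.05, and all 7 values of ACR-treated against untreated larvae are below 0.

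The share of ela2l within the sum of ela2 and ela2l differed widely between samples, which was seen in the values and is described without a test. In untreated akr1a1a+/+ larvae, replicate 3 had the highest ela2 (376 CPM) and the lowest ela2l (31.0 CPM), while replicate 2 had the lowest ela2 (132 CPM) and the highest ela2l (146 CPM). The other replicates were mixed. Replicate 5 was high in both genes (322 and 145 CPM) and replicate 4 below the group mean in both (163 and 95.3 CPM). Replicates 1 (252 and 91.9 CPM) and 6 (239 and 133 CPM) lay on opposite sides of the group means (248 and 107 CPM), with ela2 near its mean. As a share of the summed CPM of both genes, ela2l took 26.7, 52.4, 7.61, 36.8, 31.0 and 35.7% in untreated replicates 1 to 6. The ACR-treated samples of the same numbers had 23.7, 51.9, 7.95, 33.1, 36.6 and 38.5%. Treated and untreated samples of 1 number were thus close to each other, and the numbers differed widely among themselves. In akr1a1a-/- larvae the share was 53.1, 50.4, 54.3, 54.7, 56.2 and 56.8%, a narrow band whose lower part overlapped replicate 2 of both akr1a1a+/+ groups.

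The summed level of ela2 and ela2l was 354 ± 78.7 CPM in untreated akr1a1a+/+ larvae, 348 ± 34.4 CPM in akr1a1a-/- larvae and 293 ± 94.4 CPM in ACR-treated larvae (SD, n = 6 each). The means of the genotypes were closer in the sum than in either gene. The part of the assignment of reads between the 2 copies in this split was not tested.

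**Figure D3:**
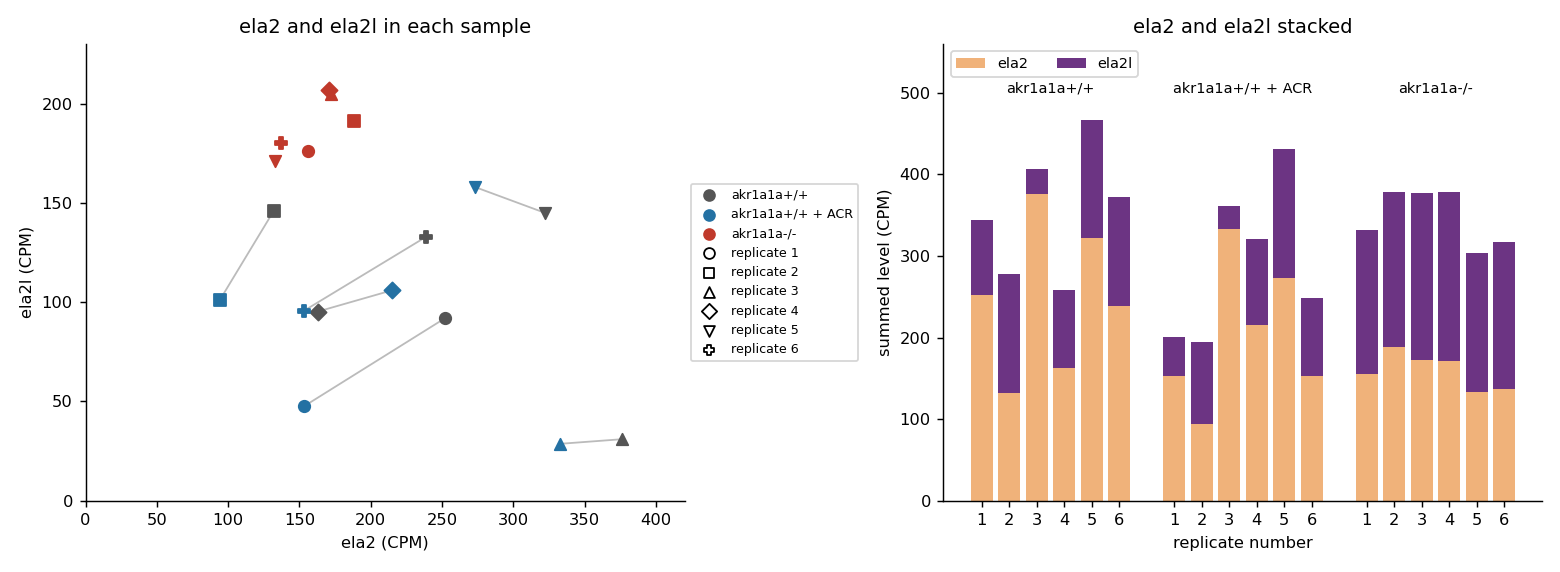
Left, ela2l against ela2 (both in CPM) in each of the 18 samples, coloured by group, with the marker shape giving the replicate number and grey lines joining untreated and treated akr1a1a+/+ samples of 1 number. Right, both genes stacked per sample, where the 6 akr1a1a-/- samples have ela2l shares of 50.4 to 56.8% and replicate 3 of the akr1a1a+/+ groups has 7.61 and 7.95%.

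The treatment comparison asked whether an external ACR load altered the enzymes in larvae with intact akr1a1a. All 7 members had a lower mean in ACR-treated larvae, by 0.23 to 0.39 on the log2 scale, and none passed the threshold. Fold changes, SE and adjusted p of this comparison leave out the pairing by replicate number unless stated. Leaving out 1 sample kept all 7 values below 0 but moved ela2l from -0.50 (without treated replicate 5) to -0.07 (without treated replicate 3), ela2 from -0.48 (without treated replicate 3) to -0.13 (without untreated replicate 3) and ela3l from -0.36 (without treated replicate 3) to -0.09 (without treated replicate 2). The ACR-treated samples had 387, 302, 624, 574, 664 and 421 CPM for prss1, and 434, 427, 715, 753, 814 and 547 CPM for prss59.2. Replicates 1, 2 and 6 were low and replicates 3 to 5 high for both trypsins. Prss59.1 had 184, 152, 385, 360, 445 and 305 CPM, a mean of 305 ± 116 against 390 ± 99.7 in untreated larvae (log2 fold change -0.35, SE 0.22, edgeR, adjusted p = 0.91).

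Among the treated samples, replicates 3 to 5 were again the highest for ela2 and ela3l. Ela2 had 153, 94.1, 333, 215, 273 and 153 CPM and ela3l had 98.3, 65.1, 186, 143, 177 and 107 CPM. Ela2l had 47.5, 101, 28.7, 106, 158 and 95.6 CPM, with replicate 3 lowest as in the untreated larvae. CPB1 had 202, 155, 271, 263, 274 and 216 CPM, and its log2 fold change of -0.39 (SE 0.20, 95% interval -0.81 to 0.02) was the largest of the 7 in this comparison (edgeR, adjusted p = 0.91). Treated and untreated samples overlapped for every member.

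Without pairing by replicate number, called members were 0 of 7 in edgeR, in DESeq2 and in limma on log2 TPM. DESeq2 called 0.11% of all genes and limma 0.00861%. In edgeR, 0.0258% of all genes were called (6 genes, all higher). At an unadjusted p under 0.05, this unpaired edgeR fit also passed 0 of 7 members, beside 5.42% of all genes. With the replicate number as a block, 0.138% of all genes were called and again 0 of 7 members. At an unadjusted p under 0.05 the block fit passed 1 of 7, prss59.1 (log2 fold change -0.39, edgeR, adjusted p = 0.561), beside 7.94% of all genes. This fit also held the akr1a1a-/- samples. With the block and only the 2 groups compared, log2 fold changes ran from -0.41 for prss59.1 to -0.24 for ela3l (SE 0.09 to 0.13). No member was called in that fit (edgeR, adjusted p of 0.128 or more), beside 0.599% of all genes. That fit follows the pairing, and the members passing an unadjusted p under 0.05 in it were not counted. The unadjusted counts above do not cover it. Its log2 fold changes were -0.41 (SE 0.113) for prss59.1, -0.27 (SE 0.091) for prss1 and -0.25 (SE 0.107) for prss59.2. They were -0.31 (SE 0.105) for ela2, -0.30 (SE 0.112) for ela2l, -0.24 (SE 0.096) for ela3l and -0.365 (SE 0.127) for CPB1. Without the block, the median log2 fold change was -0.26 for the members and 0.00 for all genes (0.000933 before rounding), of which 49.6% had a value below 0. Exact two-sided tests over the sign changes of the 6 same-numbered pairs gave p = 0.0938 for prss59.1 and up to 0.219 for prss59.2 and ela2l, where 0.0312 is the smallest possible.

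By replicate number, the direction was shared by nearly all members within a pair. All 7 members were lower in the treated sample in replicates 1, 2, 3 and 6, with median treated-to-untreated ratios of 0.619, 0.737, 0.862 and 0.656. In replicate 5, 6 of 7 were lower, with a median ratio of 0.887. Replicate 4 went the other way, with all 7 members higher in the treated sample at ratios of 1.11 to 1.49. The untreated sample of replicate 4 was 1 of the 2 lowest akr1a1a+/+ samples in 6 of 7 members. Across all genes, 49 to 51.1% were lower in the treated sample of each pair.

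The treated samples of each lane were also set against all 6 untreated samples, without the pairing. With treated replicates 1 to 3 alone, which shared lane 2 with the untreated larvae, log2 fold changes ran from -0.86 for ela2l to -0.36 for ela2. With treated replicates 4 to 6 alone, on lane 3, they ran from -0.27 for CPB1 to 0.16 for ela2l. No member was called in either (edgeR, adjusted p of 0.282 or more on lane 2 and of 1 on lane 3). The difference between the lanes was not tested. Within the pairs above, the median treated-to-untreated ratios were 0.619, 0.737 and 0.862 for replicates 1 to 3. They were 1.3, 0.887 and 0.656 for replicates 4 to 6. Every untreated sample of these pairs was on lane 2, so lane and replicate number cannot be told apart here.

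**Figure D4:**
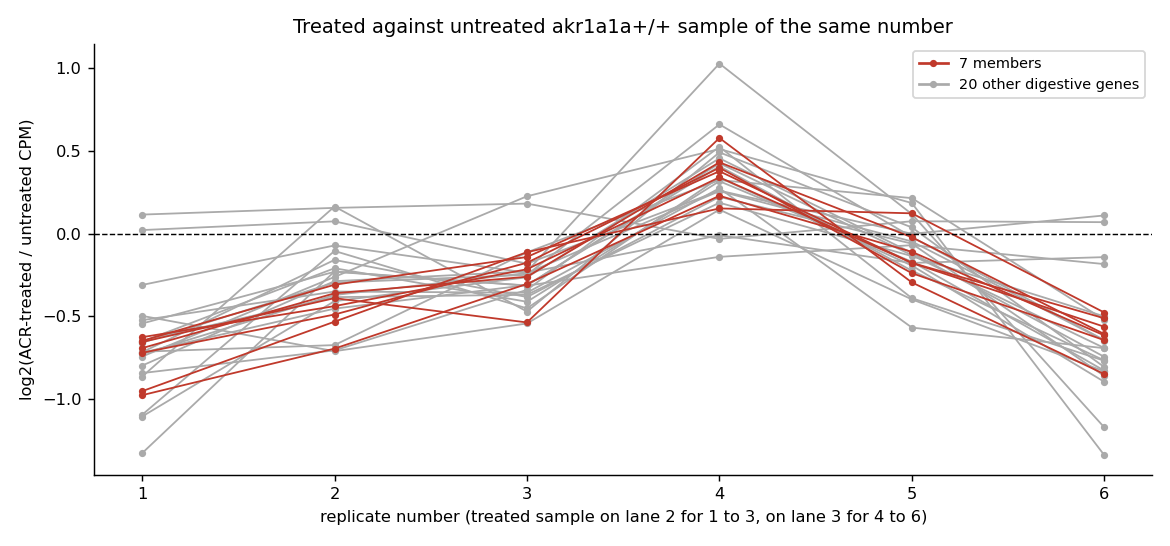
Log2 ratio of the ACR-treated to the untreated akr1a1a+/+ sample of the same replicate number (y axis) for the 7 members in red and 20 other digestive genes in grey, with amy2al2 left out because its level spans 0.289 to 78.7 CPM among the treated samples. The members lie below 0 together in replicates 1, 2, 3 and 6 and above 0 together in replicate 4, where their ratios are 1.11 to 1.49.

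Compared directly with ACR-treated larvae, akr1a1a-/- larvae had more ela2l. The mean was 188 ± 15.2 CPM against 89.6 ± 46.0 CPM (SD, n = 6 each), no akr1a1a-/- sample overlapped a treated sample, and the log2 fold change was 1.07 (SE 0.33, 95% interval 0.38 to 1.76, edgeR, adjusted p = 0.0347). The exact two-sided permutation test gave p = 0.0022, the smallest possible. This was 1 of 7 members called, beside 13.8% of all genes (6.46% higher and 7.29% lower in akr1a1a-/- larvae), and also 1 of 7 at an unadjusted p under 0.05, beside 27.1%. Groups that did not overlap were found for 6.13% of all genes. With the treated samples of lane 3 alone, where both groups shared a lane, the value was 0.65 (edgeR, adjusted p = 0.222), and with a lane term 0.65 (adjusted p = 0.302). In both, the lane of the treated samples coincides with their replicate numbers. Leaving out akr1a1a-/- replicate 2, 3, 4 or 6, or treated replicate 1 or 3, also ended the call, with log2 fold changes of 0.89 to 1.09 and adjusted p of 0.0517 to 0.0734.

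The other 6 members had log2 fold changes from -0.35 for ela2 to 0.27 for prss59.1 in this comparison, with adjusted p of 0.389 or more. The trypsins had somewhat higher means in akr1a1a-/- larvae, 587 against 495 CPM for prss1, 703 against 615 CPM for prss59.2 and 368 against 305 CPM for prss59.1. In each of these the akr1a1a-/- samples lay within the range of the treated samples or overlapped it.

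The members varied widely between samples of 1 group. The coefficient of variation of the members was 19.5 to 41.3% in untreated akr1a1a+/+ larvae (median 30.6%), 20.7 to 51.4% in ACR-treated larvae (36.7%) and 8.05 to 26.8% in akr1a1a-/- larvae (13.5%). Over the 1511 genes with at least 100 CPM the median was 6.25, 7.33 and 6.73%, in the same order of groups. All 7 members exceeded the 90th percentile of those genes in untreated larvae (15.4%) and in ACR-treated larvae (16.7%), and 2 of 7 did in akr1a1a-/- larvae (15%). The difference in spread between the genotypes was not tested.

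Most members shared their high and low samples. In untreated akr1a1a+/+ larvae, replicates 2 and 4 were each among the lowest 2 samples in 6 of 7 members, the exception being ela2l, and replicate 3 was the highest in 4. In ACR-treated larvae, replicate 2 was the lowest in 6 of 7 members and replicate 5 the highest in 5. In akr1a1a-/- larvae, replicate 1 was the lowest in 5 of 7. As a description, the distance of a gene to the mean profile of the 7 members was taken as the mean absolute difference of centred log2 CPM over the 18 samples. It was 0.08 to 0.13 for the trypsins, 0.19 for CPB1, 0.22 for ela3l, 0.29 for ela2 and 0.62 for ela2l, beside a median of 0.29 over all 19360 genes compared. Ela2 was thus about as near as the median gene (0.288 beside 0.292 before rounding). Ela2l was among the furthest, although each member is itself part of the mean profile.

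The nearest 4 of the non-member genes were digestive enzymes. The first was ctrb.1, a chymotrypsinogen (distance 0.08), followed by a carboxypeptidase A gene named CPA1 (ENSDARG00000021339, 0.10), an elastase gene named CELA1 (ENSDARG00000017314, 0.11) and ctrl, a chymotrypsin-like gene (0.13). The next 6 were cyp2ad6, SLC16A12, gja13.1, SYT17, loc100334908 and SAT1, at 0.16 to 0.17, and are not digestive enzymes. Other genes of the digestive list were far from the profile, with amy2al2 at 2.64, one SYCN gene (ENSDARG00000090899) at 0.62, PLA2G1B at 0.61 and ctrb.2 at 0.53.

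Of 21 other digestive genes tested, 0 passed adjusted p under 0.05 between the genotypes, beside 16.2% of all genes. Between treated and untreated larvae, 0 of 21 passed, beside 0.0258% of all genes. Both counts are by edgeR without the replicate block. The list also holds genes named SYCN and spink4, which do not encode digestive enzymes. The median log2 fold change of the 21 genes was 0.02 for akr1a1a-/- against akr1a1a+/+ and -0.28 for ACR-treated against untreated. In the latter, 18 of 21 were below 0. They were lower in the treated sample in 19, 18, 19, 4, 14 and 18 of 21 genes in replicates 1 to 6, so replicate 4 again stood apart. Against ACR-treated larvae, 2 of 21 were higher and 0 lower in akr1a1a-/- larvae, beside 6.46% and 7.29% of all genes. These 2 are named here after their values were seen. The lipase gene CEL (ENSDARG00000029822) had 37.5 ± 6.08 against 24.1 ± 5.98 CPM (edgeR, adjusted p = 0.00956), and the amylase gene amy2a had 49.2 ± 12.2 against 30.0 ± 10.5 CPM (adjusted p = 0.0499).

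Of 11 genes tested that regulate acinar cells, 1 was higher in akr1a1a-/- larvae and 0 lower, beside 8.19% and 7.96% of all genes. This gene, BHLHA15, had 0.769 ± 0.177 against 0.44 ± 0.183 CPM, near the level of a few counts per sample (log2 fold change 0.80, edgeR, adjusted p = 0.046), and was picked out after its value was seen. With the replicate block, BHLHA15 did not pass (edgeR, adjusted p = 0.0582). PTF1A had 1.52 against 1.85 CPM (adjusted p = 0.336). None of the 11 was called between treated and untreated larvae, beside 0.0258% of all genes.

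Of 49 genes of the secretory pathway tested, 2 were higher and 2 lower in akr1a1a-/- larvae. DAD1, a subunit of the oligosaccharyltransferase, had 40.1 ± 3.15 against 31.3 ± 2.27 CPM (log2 fold change 0.36, edgeR, adjusted p = 0.000848). SEC61G and SEC61B, small subunits of the translocon through which secretory proteins enter the endoplasmic reticulum, fell by 0.33 and 0.26 on the log2 scale (edgeR, adjusted p = 0.000354 and 0.00226), without overlap between the groups. These genes act in all secreting cells, and 16.2% of all genes tested were called in this comparison.

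Of 16 genes that control enzyme release, 3 were lower and 0 higher in akr1a1a-/- larvae, beside 7.96% lower and 8.19% higher of all genes. CCKAR, the cholecystokinin receptor that triggers acinar secretion in rodents, had 1.91 ± 0.524 CPM in akr1a1a-/- larvae against 3.6 ± 0.231 CPM in akr1a1a+/+ larvae, without overlap (log2 fold change -0.91, SE 0.15, edgeR, adjusted p = 0.000342). STX3 (ENSDARG00000001880), a syntaxin of apical membranes and granules, had 17.5 ± 1.95 against 23.8 ± 1.12 CPM, also without overlap (log2 fold change -0.45, adjusted p = 9.66e-05). The other gene named STX3 (ENSDARG00000051981) had 10.6 ± 1.11 against 9.94 ± 0.804 CPM (log2 fold change 0.09, adjusted p = 0.487). CCKAR and the first STX3 gene were also lower against ACR-treated larvae, by 0.93 and 0.48 on the log2 scale, in a comparison that shares the akr1a1a-/- samples. Neither gene is restricted to acinar cells. Between treated and untreated larvae, 0 of the 16 genes were called, beside 0.0258% of all genes.

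Markers of neighbouring cell types are given beside the share of 16.2% called over all genes. Enterocyte markers had 4 higher and 1 lower of 20 tested in akr1a1a-/- larvae, and their summed level was 5398 to 7526 TPM in akr1a1a+/+ and 6550 to 7303 TPM in akr1a1a-/- samples. Hepatocyte markers had 4 higher and 1 lower of 17, among them tfa, transferrin, with 1630 ± 194 against 1160 ± 110 CPM (edgeR, adjusted p = 0.000215), at summed levels of 13620 to 16460 and 13120 to 17130 TPM. Duct markers had 1 higher and 1 lower of 10, with the bicarbonate transporter gene SLC4A4 (ENSDARG00000013730) at 179 ± 7.05 against 140 ± 5.89 CPM (adjusted p = 3.03e-05) and the other SLC4A4 gene (ENSDARG00000044808) not called (adjusted p = 0.577), and their summed levels, made up mostly of krt4, a keratin gene also expressed in skin, were 6796 to 7504 and 6056 to 8361 TPM. Islet markers had 1 higher, the somatostatin gene sst1.2, named here after its value was seen, and 0 lower of 16, at 310.2 to 342.9 and 286 to 337.6 TPM. Between treated and untreated larvae, 0 markers of these 4 lists were called, beside 0.0258% of all genes. The part of other cell types in the enzyme levels was not tested.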

How the data were processed

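Total RNA of 18 pools of zebrafish larvae was sequenced on BGISEQ-500. The authors deposited, per sample, estimated counts per gene and TPM values (transcripts relative to the sample's total, per length). The submitters' processing notes name Trim Galore 0.6.4, kallisto 0.4.6 and GRCz11, while the annotation and strand setting are not given in the sources used here. Such counts are split by likelihood between similar transcripts, so 45.1 to 46% of the genes of a sample had values that were not whole, and close copies can exchange reads.

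Samples were grouped by genotype and treatment labels. Estimated counts were rounded, filtered with filterByExpr (23223 genes kept), scaled by TMM and tested in edgeR 4.0.16 (R 4.3.3) by the quasi-likelihood test with 3 group means over 18 samples (15 residual degrees of freedom), with Benjamini-Hochberg adjustment over all genes and a threshold of 0.05. The scripts were tested on simulated data. SE was derived from the F statistic. CPM used TMM-scaled totals, with a prior count of 2 on the log2 scale. Permutation tests were exact and two-sided. With the totals given above, a floor of 3 counts equals 0.145 to 0.154 CPM, which covers counting error only. No pair of replicate libraries agreed within sampling noise.

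Members, gene lists and comparisons were chosen with earlier results of these data known. From the other lists, the text names up to 4 genes per comparison with the largest fold change. These were called genes whose groups did not overlap and whose mean log2 CPM was 1 or more. The 10 genes nearest to the member profile and the fixed acinar markers such as PTF1A are named as well. The text says where a called gene was named outside this rule. Related copies of named genes, digestive genes far from the profile and krt4 were also named outside it. Symbols came from a name table that covers 29201 of the 32520 IDs. Where a listed symbol other than a member was missing, the name without its copy suffix was searched, a rule added once the name table was seen.

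Replicate numbers are shared by the groups, and the labels do not say what they mark. Deviations from the group mean of same-numbered untreated and ACR-treated akr1a1a+/+ samples correlated at 0.249 to 0.603 across genes (mean 0.445, other pairs -0.0887), above 0.1 in all 6 pairs, so these were taken as paired. Where the labels do not tie samples to separate clutches, p-values measure only the spread between these samples. Alternatives were other size factors, DESeq2 1.42.0, limma 3.58.1 on log2(TPM + 1) and log2(TPM + 0.1), other filters, the replicate block, a lane term, fits of 2 groups and leaving out each sample. A planned search of promoters for motifs was not run, as no promoter sequence was used here.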

Additional observations from a re-analysis of the deposited data

How the results depend on the processing

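Of 483 alternative values for the 21 member fold changes, 448 kept direction and side of the threshold, 5 came to pass it, 9 no longer passed it and 21 changed sign. In ACR-treated against untreated larvae, 0 members were called under every alternative run, and the replicate block changed no call there. The number of members called higher in akr1a1a-/- against akr1a1a+/+ larvae rose from 0 to 1 (ela2l) with the replicate block (log2 fold change 1.00, adjusted p = 0.0158), with only the 2 groups (0.81, adjusted p = 0.0442) and with both (0.93, adjusted p = 0.0391). With only the 2 groups, 1 was also called lower (ela2, -0.64, adjusted p = 0.0467). Over all genes, 20.8% were called between the genotypes with the block, 15.5% with only the 2 groups and 15.5% with both. Against ACR-treated larvae, 0 members instead of 1 were called higher with limma on log2(TPM + 0.1) (ela2l 1.2, adjusted p = 0.0503), with the lane term (0.65) and with treated samples of lane 3 alone (0.65). Same-numbered samples of the 2 genotypes correlated in their deviations at 0.0387 to 0.131 (mean 0.0761, other pairs -0.0153, 3 of 6 best with their own number). Those of akr1a1a-/- and ACR-treated larvae correlated at -0.0395 to 0.0988 (mean 0.0446, other pairs -0.00886, 2 of 6). These samples were not taken as paired, and whether they share more than a number was not tested. Of 21 other digestive genes, the block called 3 in place of 0 between the genotypes, beside 20.8% of all genes. These were amy2al2 (edgeR, adjusted p = 0.00745), PLA2G1B (0.0189) and CEL ENSDARG00000029822 (0.0446). Against ACR-treated larvae, the block called 4 of the 21 in place of 2, beside 18.2% of all genes. The block moved the genes called from 3752 to 4828 and from 3194 to 4229 in these comparisons, and from 6 to 32 in ACR-treated against untreated larvae.

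The following values changed sign, none of them past the threshold under the alternative. For akr1a1a-/- against akr1a1a+/+, prss1 was 0.031 with the block and 0.022 with the block and 2 groups, and ela2l was -0.20 with the lane term in place of 0.82. For ACR-treated against untreated larvae, ela2l was 0.16 with treated lane 3 alone. For akr1a1a-/- against ACR-treated larvae, the lane term gave -0.0095 for prss59.1, -0.0031 for prss59.2 and -0.039 for CPB1, and treated lane 3 alone gave -0.0087, -0.0023 and -0.039. Leaving out 1 sample moved prss1 between -0.093 and 0.078 and prss59.2 between -0.105 and 0.020 between the genotypes, and CPB1 between -0.063 and 0.145 against ACR-treated larvae. The called members then numbered 0 to 1 lower between the genotypes and 0 to 1 higher against ACR-treated larvae. The lane term left 1498 genes called between the genotypes in place of 3752 and 1980 in place of 3194 against ACR-treated larvae. Genes called between treated and untreated larvae numbered 23 in DESeq2, 2 in limma with either pseudocount, 1 with only the 2 groups, 137 with the block and 2 groups, 20 with the lane term, 13 with treated lane 2 alone and 0 with lane 3 alone, beside 6. The causes were not tested. Depth was even and limited no member.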

Other observations

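The amylase gene amy2al2, picked out after its values were seen, was nearly silent in some akr1a1a+/+ samples and abundant in others. It had 7.75, 0.392, 0.801, 30.5, 66.4 and 28.9 CPM in untreated replicates 1 to 6 and 0.296, 0.289, 0.391, 30.0, 78.7 and 32.6 CPM in the ACR-treated samples of the same numbers. The low and high replicate numbers were thus the same in both groups except for replicate 1 (7.75 CPM untreated and 0.296 CPM treated). The untreated samples all came from lane 2, whereas treated replicates 1 to 3 came from lane 2 and 4 to 6 from lane 3. Lane and replicate number thus coincide among the treated samples, and the part of either was not tested. The akr1a1a-/- samples had 107, 86.8, 92.7, 115, 94.0 and 71.6 CPM, all above the untreated akr1a1a+/+ samples. Groups that did not overlap, in either direction, were found for 7.45% of all genes tested between the genotypes. Against the treated samples amy2al2 overlapped, as treated replicate 5 (78.7 CPM) was above akr1a1a-/- replicate 6 (71.6 CPM). The log2 fold change between the genotypes was 2.07 (SE 0.91, edgeR, adjusted p = 0.13). Its 2 related genes were measured beside it. In akr1a1a-/- against akr1a1a+/+ larvae, amy2a had 49.2 ± 12.2 against 37.6 ± 12.1 CPM (adjusted p = 0.283) and amy2al1 had 6.67 ± 0.449 against 6.31 ± 0.654 CPM (adjusted p = 0.639).

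PLA2G1B, the pancreatic phospholipase A2, had 6.17 ± 3.28 CPM in akr1a1a-/- larvae against 12.4 ± 5.04 CPM in akr1a1a+/+ larvae (SD, n = 6 each), with overlapping groups (log2 fold change -1.01, edgeR, adjusted p = 0.0731). It was also picked out after its values were seen. Against ACR-treated larvae, 5 enterocyte markers were higher and 1 lower of 20 tested in akr1a1a-/- larvae, beside 6.46% and 7.29% of all genes. The lower gene, chia.1, an acidic chitinase, had 68.2 ± 18.2 against 114 ± 13.1 CPM without overlap (log2 fold change -0.74, edgeR, adjusted p = 0.0178).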
